A study of Mus musculus with 13 samples.

Results

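Interferon-stimulated and antigen presentation genes were followed liver by liver in 13 mice, with or without Sel1L in their hepatocytes, at 3 and 9 weeks of age. The 45 genes were listed by name for their part in the interferon response and in class I antigen presentation with earlier results of these data known, by a rule that uses no measured value. A gene counted as measured when the array had a feature (a set of probes summarised to 1 value) annotated with its symbol alone, and a gene with several such features was represented by the feature with the highest mean over the 13 livers. By this rule 41 of the 45 genes were measured, out of 18820 measured genes in all. Parp9, Dtx3l and Igtp had features annotated with more than 1 gene only, and Ifi44 was matched to no feature here. Oas3 lay below the array medians on average, with a mean of 3.58 against 3.78, and the 40 other genes lay above.

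Interferons are secreted when cells sense foreign nucleic acid or when lymphocytes are activated, and they act through receptors and Janus kinases on STAT transcription factors. Complexes that hold STAT2 and IRF9 bind interferon-stimulated response elements, which interferon regulatory factors such as IRF1 bind as well, and gamma-activated sites are the elements of the response to interferon gamma. The genes switched on there encode antiviral proteins, chemokines, GTPases that attack intracellular pathogens, and the machinery that loads peptides onto MHC class I. In liver, hepatocytes, macrophages, endothelial cells and lymphocytes all respond to interferon.

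All mice were on the C57BL/6J background, and RNA of the whole liver went to 1 Affymetrix array per animal. The Sel1L-deficient mice came from the allele Sel1ltm1e(KOMP)Wtsi, from which the lacZ-neo cassette had been removed with FLPe. They carried a floxed exon 6 and Cre under the albumin promoter, which is active in hepatocytes. How far each cell type of the liver lost or kept the gene was not measured. The labels call the controls wild type and do not say whether they carried the floxed allele or Cre, and all mice were fasted in the morning before the livers were taken. Wild type was represented by 3 livers at each age, and Sel1L deficiency by 4 livers at 3 weeks and 3 at 9 weeks.

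Values are log2 expression made by robust multi-array averaging (RMA), and differences are Sel1L-deficient minus wild type on that scale with the standard error (SE) of the limma fit. Array medians lay between 3.73 and 3.81, and the correlation of arrays within a group ran from 0.983 to 0.988. Sel1l was 8.94, 8.77 and 8.85 in wild type against 8.42, 7.90, 7.20 and 7.10 in Sel1L-deficient liver at 3 weeks, and 8.78, 8.70 and 8.72 against 7.90, 7.54 and 7.72 at 9 weeks. All Sel1L-deficient livers lay below all wild-type livers, replicate 1 at 3 weeks nearest to them, and the differences of -1.21 and -1.02 were not called (adjusted p = 0.391 and 0.108). The 8 measured hepatocyte markers had a median level of 12.44 over the livers. Fewer cells of a type and less RNA per cell cannot be told apart in these whole-liver values.

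Promoter windows from RefSeq (build GRCm38.p6, 250 bases before to 50 after the start site) were at hand for 32 of the 41 genes. The 10-base core of the interferon-stimulated response element, GAAANNGAAA on either strand, lay in the windows of 17 of these 32 genes (53.1%), against 1079 of all 27025 genes with a window (3.99%). The gamma-activated site core TTCNNNGAA lay in 6 of 32 (18.8%) against 9.55% of all genes. Printed below are 100 bases of the window upstream of the start site for 6 genes picked among those with a match. Each stretch reads 5′ to 3′ on the strand of the gene, with matches in capitals. The genes are the regulator Irf1, the GTPases Irgm1 and Gbp3, the antiviral gene Ifit3, the class I light chain B2m and the ubiquitin-like modifier Isg15. The windows of Tap1 and Cxcl9 held neither core.

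Irf1: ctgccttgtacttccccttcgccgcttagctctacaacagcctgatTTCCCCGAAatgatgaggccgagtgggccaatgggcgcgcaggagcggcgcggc

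Irgm1: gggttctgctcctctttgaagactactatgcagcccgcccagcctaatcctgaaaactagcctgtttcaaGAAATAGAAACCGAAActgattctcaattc

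Gbp3: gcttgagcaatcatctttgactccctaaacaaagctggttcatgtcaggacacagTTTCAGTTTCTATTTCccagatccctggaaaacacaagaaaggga

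Ifit3: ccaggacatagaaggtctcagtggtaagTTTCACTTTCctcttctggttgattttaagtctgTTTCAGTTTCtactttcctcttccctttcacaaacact

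B2m: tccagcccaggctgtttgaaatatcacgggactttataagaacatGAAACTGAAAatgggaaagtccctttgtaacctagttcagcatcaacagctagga

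Isg15: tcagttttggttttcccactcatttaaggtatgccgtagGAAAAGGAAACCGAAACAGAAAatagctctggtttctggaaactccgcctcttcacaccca

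The Irf1 stretch (chr11:53769878-53769977, plus strand) holds a gamma-activated site core that begins at -90 from the start site, and no response element core. Irgm1 (chr11:48871421-48871520, minus strand) and Gbp3 (chr3:142559944-142560043, plus strand) each hold 2 overlapping response element cores, beginning at -30 and -24 in Irgm1 and at -45 and -39 in Gbp3. In Ifit3 (chr19:34583345-34583444, plus strand) the cores begin at -156 and -122, and in B2m (chr2:122147503-122147602, plus strand) a single core begins at -139. Isg15 (chr4:156200836-156200935, minus strand) has 3 overlapping cores at -78, -72 and -66. In Gbp3 and Ifit3 the match is to the other strand and reads TTTCNNTTTC. A match describes letters in the window and was not tested as a binding site.

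Individual livers stood apart within their groups on these genes. Sel1L-deficient replicate 3 at 3 weeks had the highest value of all 13 livers in 15 of the 41 genes, where 7.58% of all measured genes peaked in that liver. It was the highest of its group of 4 in 33 of 41 genes (23.8% of all measured genes) and exceeded the mean of the other 3 livers by a median of 0.62. Wild-type replicate 2 at 9 weeks had the highest value of all livers in 14 genes (8.49% of all measured genes) and the highest of its group in 32 (30.1%), with a median excess of 0.46. Wild-type replicate 2 at 3 weeks had the lowest value of all livers in 12 genes (7.99%).

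**Figure D1:**
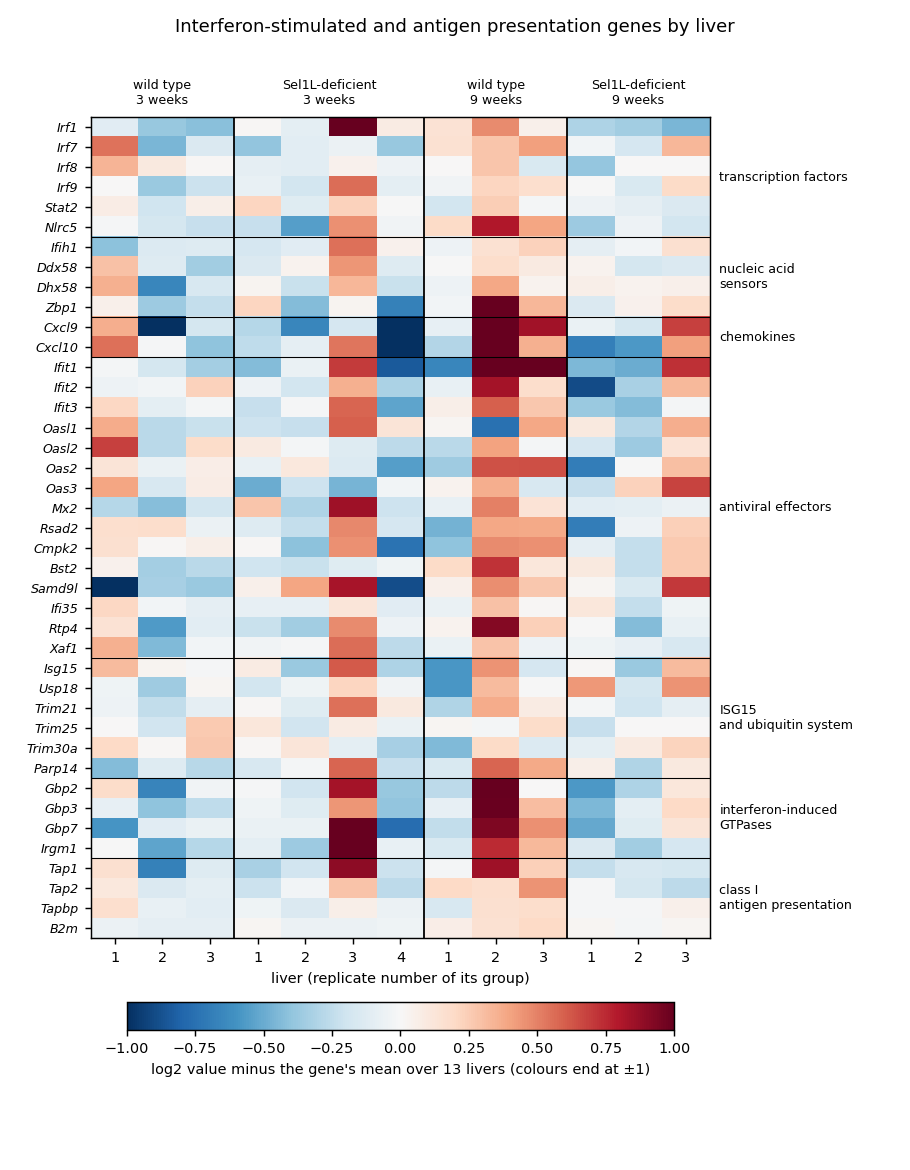
Heat map of the 41 measured genes, grouped by role, in each of the 13 livers, as the log2 value minus the gene's mean over all livers (red above, blue below, colours end at ±1). Columns are livers in 4 groups by genotype and age. Sel1L-deficient replicate 3 at 3 weeks and wild-type replicate 2 at 9 weeks are red in most rows.

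As a mean over the 41 genes, the log2 value minus the 13-liver mean was 0.08, -0.25 and -0.11 in wild type against -0.09, -0.15, 0.39 and -0.28 in Sel1L-deficient liver at 3 weeks. At 9 weeks it was -0.12, 0.53 and 0.22 in wild type against -0.18, -0.17 and 0.14 in Sel1L-deficient liver. The genotypes overlapped at both ages, and the highest and lowest livers of the younger set were both Sel1L-deficient. Over all measured genes the same mean stayed between -0.01 and 0.005 in every liver. The genes also varied more within groups than most: their median SD was 0.18, 0.34, 0.33 and 0.22 in the order above, against 0.14, 0.14, 0.13 and 0.13 for all measured genes.

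**Figure D2:**
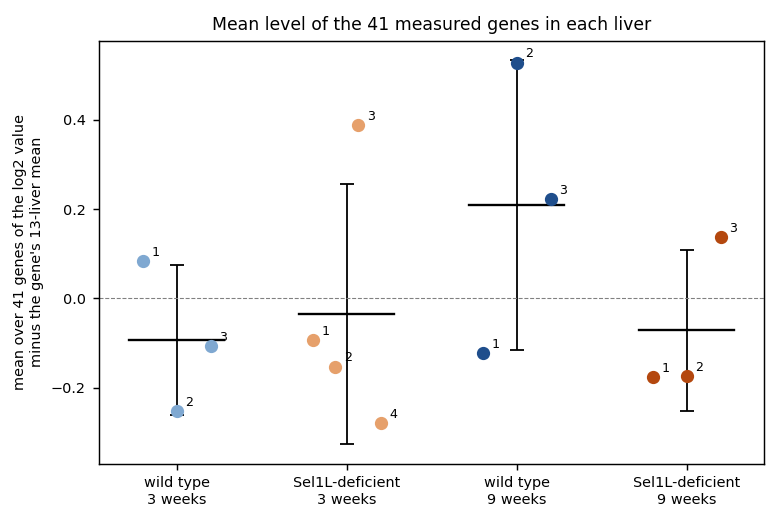
Mean over the 41 genes of the log2 value minus the gene's 13-liver mean (y axis) for each liver, by group, with the replicate number beside each point; horizontal lines are group means and bars the SD. The points of the 2 genotypes overlap at each age, with 0.39 in Sel1L-deficient replicate 3 at 3 weeks and 0.53 in wild-type replicate 2 at 9 weeks as the highest.

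Marker sums of other cell types are given beside the values of these livers. In Sel1L-deficient replicate 3 at 3 weeks the summed linear level of 14 Kupffer cell and macrophage markers was 2792, rank 11 of 13 from the highest. That of 12 T and NK cell markers was 145.8 (rank 6), and that of monocyte and neutrophil markers 75.93 (rank 12). B cell and plasmacytoid dendritic cell markers summed to 152.8 (rank 9) and conventional dendritic cell markers to 96.99 (rank 4). In wild-type replicate 2 at 9 weeks the T and NK cell sum was 177.8 and the sum of 8 monocyte and neutrophil markers 106.9, each the highest of the 13 livers, and 3495 for Kupffer cells was rank 6. B cell and plasmacytoid dendritic cell markers stood at 174.2 there and conventional dendritic cell markers at 105.4, each rank 2 of 13. By group mean, 7 of the 12 T and NK cell markers lay below the array median in 9-week wild type. So did 4 of the 8 monocyte and neutrophil markers and 5 of the 8 B cell and plasmacytoid dendritic cell markers. Of the 7 conventional dendritic cell markers, 4 did. The part of other cells in the level of the interferon genes was not tested.

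The comparison of genotypes at 3 weeks asks which genes differ between Sel1L-deficient and wild-type livers of young mice. No gene of the 41 passed an adjusted p of 0.05 over all 35556 features (limma, smallest adjusted p = 0.669), and neither did any other feature (0.0%). The median difference was 0.04 with 23 genes above 0 and 18 below, against -0.002 for all measured genes, of which 49.4% lay above 0. At an unadjusted p under 0.05, 1 gene was higher (3.43% of all measured genes) and 0 were lower (3.93%), and the higher one was Irf1. With a liver left out 0 to 3 were higher, 3 without Sel1L-deficient replicate 4 and 0 without any 1 of the wild-type or 9-week livers, and 1 (Oasl2) was lower without wild-type replicate 2. Irf1 was the only one of the 41 whose genotypes did not overlap at this age (3.67% of all measured genes higher and 3.79% lower in this way). The direction of the median depended on single livers, at -0.07 without Sel1L-deficient replicate 3 and -0.06 without wild-type replicate 2. By the plate columns in the array descriptions it was -0.22 in column 5 (2 livers of each genotype). In column 7 it was 0.31 (2 Sel1L-deficient and 1 wild-type liver). Both livers just named were in column 7, so column and single livers cannot be told apart here.

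At 9 weeks the same comparison gave lower values in Sel1L-deficient liver for 36 of the 41 genes, where 51.8% of all measured genes lay below 0. The median difference was -0.23, against -0.008 for all measured genes. Again 0 of the 41 passed the adjusted threshold (smallest adjusted p = 0.202), while 539 features of the array did (1.52%). Those 539 became 18, 30 and 1178 without Sel1L-deficient replicates 3, 2 and 1 of that age, and 140, 80 and 219 without wild-type replicates 1, 2 and 3. Without a liver of the 3-week groups they ran from 317 to 507. Under other settings they ran from 1 (only the 2 groups of the contrast fitted) to 1106 (arrays weighted). They were 184 with the replicate number as a block and 294 with the plate column as a block. Unadjusted, 3 genes were lower at p under 0.05 (Nlrc5, Tap2 and Ifit3; 6.85% of all measured genes) and 0 were higher (8.91%). In 7 genes every Sel1L-deficient liver lay below every wild-type liver (9.34% of all measured genes), namely Irf1, Nlrc5, Ifit3, Rtp4, Tap1, Tap2 and B2m. In 0 genes did every Sel1L-deficient liver lie above (11.4%). The 3 lower genes became 1 without wild-type replicate 2, where 31 genes lay below 0, the median was -0.13, and 2 genes (Usp18 and Trim30a) were higher at an unadjusted p under 0.05. They also became 1 without wild-type replicate 3. They became 13 without wild-type replicate 1 and 7 without Sel1L-deficient replicate 3 of the 3-week group, which enters through the shared estimate of spread. Without Sel1L-deficient replicate 1 or 2 of the 9-week group they became 2, and without replicate 2 Usp18 was higher. Within plate columns the median was -0.43 in column 5 (2 Sel1L-deficient livers, 1 wild type) and -0.22 in column 7 (1 Sel1L-deficient liver, 2 wild type). The wild-type liver of column 5 was replicate 2.

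**Figure D3:**
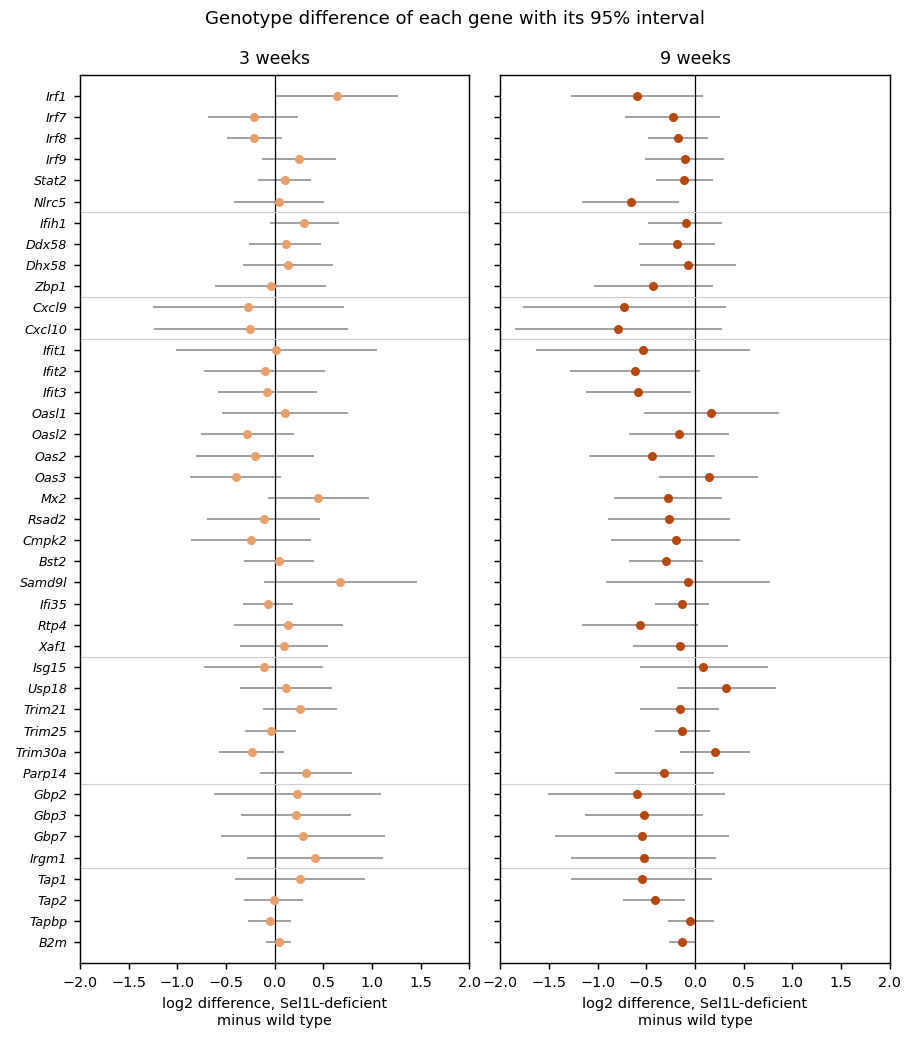
Log2 difference between Sel1L-deficient and wild-type liver (x axis) for each of the 41 genes in order of role, at 3 weeks (left) and 9 weeks (right); points are fitted differences and lines their 95% intervals, unadjusted for the number of genes. At 9 weeks 36 points lie left of 0, and most intervals cross 0 at either age.

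Transcription factors had a median difference of 0.08 at 3 weeks (4 of 6 above 0) and -0.20 at 9 weeks (6 of 6 below 0). The 3-week median was -0.04 without Sel1L-deficient replicate 3. At 9 weeks 5 of 6 were below 0 without wild-type replicate 2 (median -0.15). Irf1, which interferon gamma induces and which drives class I and GTPase genes, stood at 6.06, 5.80 and 5.76 in wild type against 6.19, 6.08, 7.52 and 6.26 in Sel1L-deficient liver at 3 weeks. All 4 Sel1L-deficient livers were above wild type, the nearest being 6.08 against 6.06, and replicate 3 lay 1.34 above the mean of the other 3. The difference was 0.64 ± 0.29 (SE; 1.56-fold, adjusted p = 0.669), and 0.30 without that liver. By 9 weeks Irf1 stood at 6.32, 6.65 and 6.23 in wild type against 5.87, 5.83 and 5.72 in Sel1L-deficient liver. The order of the genotypes was thus the opposite one, again without overlap, with a difference of -0.59 ± 0.31 (0.662-fold, adjusted p = 0.429). A second Irf1 feature, below the array median, differed by 0.16 at 3 weeks and 0.03 at 9 weeks.

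Nlrc5, the transactivator of MHC class I genes, was 6.90, 6.74 and 6.68 in wild type against 6.68, 6.36, 7.37 and 6.88 in Sel1L-deficient liver at 3 weeks, which overlap. At 9 weeks it was 7.10, 7.71 and 7.31 in wild type against 6.55, 6.86 and 6.73 in Sel1L-deficient liver, with every Sel1L-deficient liver lower. That difference was -0.66 ± 0.23 (SE; 0.633-fold, adjusted p = 0.202), between -0.80 and -0.49 with a liver of that age left out. Nlrc5 has 19 features on the array, and all 19 were below 0 at 9 weeks (-0.74 to -0.08), while 2 of 19 were below 0 at 3 weeks. These features were read in the same livers, so their shared direction adds no replicates.

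Irf8, a factor of myeloid cells, was 6.02, 5.78 and 5.69 in wild type against 5.59, 5.57, 5.72 and 5.63 in Sel1L-deficient liver at 3 weeks. Its difference was -0.21 ± 0.13 (SE; adjusted p = 0.763). At 9 weeks its values were 5.68, 5.96 and 5.53 against 5.29, 5.68 and 5.68, and the genotypes overlapped at both ages. For Irf7, which amplifies type I interferon, and for Irf9 and Stat2, whose products bind DNA together, the differences lay between -0.22 and 0.25 at 3 weeks and between -0.23 and -0.11 at 9 weeks. The 3-week ends of that range rest on single livers: Irf7 was 0.07 without wild-type replicate 1 and Irf9 0.08 without Sel1L-deficient replicate 3.

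Among the nucleic acid sensors 3 of 4 were above 0 at 3 weeks (2 of 4 without Sel1L-deficient replicate 3) and 0 of 4 at 9 weeks (1 of 4 without wild-type replicate 2). Ifih1, which encodes the RNA sensor MDA5, was 6.80, 7.07 and 7.08 in wild type against 7.04, 7.10, 7.76 and 7.25 in Sel1L-deficient liver at 3 weeks (difference 0.31 ± 0.16 SE, adjusted p = 0.720; 0.15 without Sel1L-deficient replicate 3). Its 9-week values of 7.16, 7.36 and 7.44 against 7.12, 7.18 and 7.37 overlapped. Ddx58, which encodes the RNA sensor RIG-I, was 7.19, 6.77 and 6.55 against 6.75, 6.93, 7.34 and 6.77 at 3 weeks. At 9 weeks Ddx58 was 6.89, 7.07 and 6.99 against 6.93, 6.72 and 6.75, and the genotypes overlapped at each age.

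Zbp1, a sensor of Z-form nucleic acid linked to cell death, was 5.89, 5.47 and 5.60 in wild type against 6.05, 5.40, 5.86 and 5.16 in Sel1L-deficient liver at 3 weeks. At 9 weeks it was 5.81, 6.89 and 6.17 in wild type against 5.69, 5.88 and 6.02 in Sel1L-deficient liver. The 9-week difference of -0.43 ± 0.28 (adjusted p = 0.554) was -0.13 without wild-type replicate 2, the highest liver, and -0.67 without wild-type replicate 1. Dhx58, which encodes the regulatory sensor LGP2, differed by 0.13 at 3 weeks and -0.08 at 9 weeks.

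The chemokines Cxcl9 and Cxcl10, which attract T cells through CXCR3, had the 2 lowest differences of the 41 genes at 9 weeks. Cxcl9 was 7.63, 6.25 and 7.09 in wild type against 6.98, 6.62, 7.10 and 6.17 in Sel1L-deficient liver at 3 weeks. At 9 weeks Cxcl9 was 7.19, 9.11 and 8.11 in wild type against 7.20, 7.09 and 7.95 in Sel1L-deficient liver. The spread among the wild-type livers alone covered almost the whole range, and the difference of -0.73 ± 0.48 (SE; 0.604-fold, adjusted p = 0.558) was -0.24 without wild-type replicate 2 and -1.20 without wild-type replicate 1. Cxcl10 was 6.98, 6.42 and 6.03 against 6.18, 6.34, 6.97 and 5.43 at 3 weeks. Its 9-week values were 6.14, 7.87 and 6.79 against 5.75, 5.86 and 6.84, with a difference of -0.79 ± 0.49 (0.580-fold, adjusted p = 0.525) that was -0.32 without wild-type replicate 2 and -1.18 without wild-type replicate 1. Both chemokines overlapped between genotypes at each age, and at 3 weeks their differences of -0.27 and -0.25 turned positive with single livers left out.

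Of the 15 antiviral effectors measured, 7 were above 0 at 3 weeks and 2 at 9 weeks, with medians of -0.07 and -0.27. Without Sel1L-deficient replicate 3 they were above 0 in 3 of 15 at 3 weeks, and without wild-type replicate 2 the 9-week median was -0.12. Ifit2 and Ifit3 belong to a family of interferon-induced genes, and close relatives in such a family can share probe signal. Ifit3 was 6.49, 6.18 and 6.26 in wild type against 6.05, 6.27, 6.86 and 5.75 in Sel1L-deficient liver at 3 weeks. By 9 weeks it was 6.34, 6.88 and 6.55 in wild type against 5.91, 5.85 and 6.26 in Sel1L-deficient liver, without overlap (difference -0.58 ± 0.25 SE, 0.667-fold, adjusted p = 0.313). Ifit2 was 3.94, 3.96 and 4.22 against 3.94, 3.80, 4.34 and 3.67 at 3 weeks. At 9 weeks Ifit2 was 3.91, 4.82 and 4.16 against 3.09, 3.66 and 4.31, a difference of -0.61 ± 0.30 (adjusted p = 0.407) with overlap, and several of these values lay near the array median. That difference was -0.35 without wild-type replicate 2, -0.31 without Sel1L-deficient replicate 1 and -0.93 without Sel1L-deficient replicate 3.

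Rtp4, a transmembrane protein gene induced by interferon, was 6.69, 5.98 and 6.44 in wild type against 6.32, 6.20, 7.02 and 6.49 in Sel1L-deficient liver at 3 weeks. Its 9-week values of 6.58, 7.46 and 6.78 in wild type lay above 6.54, 6.11 and 6.47 in Sel1L-deficient liver. That difference was -0.57 ± 0.27 (SE; 0.675-fold, adjusted p = 0.390), and -0.31 without wild-type replicate 2. Samd9l, a growth-restraining antiviral gene, had the highest difference of the 41 genes at 3 weeks. It stood at 3.79, 4.49 and 4.45 in wild type against 4.87, 5.22, 5.65 and 3.94 in Sel1L-deficient liver, where 3 of 4 were above every wild type (difference 0.67 ± 0.36, 1.59-fold, adjusted p = 0.720; 0.43 without Sel1L-deficient replicate 3). At 9 weeks Samd9l was 4.87, 5.29 and 5.09 against 4.84, 4.67 and 5.53, with a difference of -0.07.

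Mx2, a gene of the dynamin-like GTPase family, was 4.25, 4.11 and 4.35 in wild type against 4.81, 4.23, 5.38 and 4.33 in Sel1L-deficient liver at 3 weeks. The difference of 0.45 ± 0.24 (SE; adjusted p = 0.720) was 0.22 without Sel1L-deficient replicate 3. At 9 weeks Mx2 was 4.46, 5.04 and 4.67 against 4.43, 4.44 and 4.48. The other 10 effectors include the 4 oligoadenylate synthetase genes Oas2, Oas3, Oasl1 and Oasl2, whose products sense RNA or resemble those that do. They also include Ifit1, the nucleotide-modifying Rsad2 and Cmpk2, the tether of budding virus Bst2, and Ifi35 and Xaf1. Their differences ran from -0.40 (Oas3) to 0.11 (Oasl1) at 3 weeks and from -0.54 (Ifit1) to 0.17 (Oasl1) at 9 weeks. Oas3 and Oasl1 were the 2 effectors above 0 at 9 weeks, Oasl1 turning to -0.15 without wild-type replicate 2, and Ifit1 ran from -1.09 (without wild-type replicate 1) to -0.25 (without wild-type replicate 3).

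The ISG15 and ubiquitin system did not lean one way at 9 weeks: 3 of 6 genes were above 0 at each age, with medians of 0.04 and -0.02. The 9-week median was -0.15 without wild-type replicate 1 and 0.19 without wild-type replicate 2. Isg15, which encodes a ubiquitin-like tag for proteins, was 5.33, 5.04 and 5.00 in wild type against 5.09, 4.64, 5.62 and 4.70 in Sel1L-deficient liver at 3 weeks, and 4.43, 5.46 and 4.84 against 5.02, 4.64 and 5.33 at 9 weeks. Usp18, which removes that tag and restrains the interferon receptor, was 6.75, 6.44 and 6.81 against 6.61, 6.75, 7.01 and 6.76 at 3 weeks. At 9 weeks Usp18 was 6.21, 7.11 and 6.79 in wild type against 7.23, 6.62 and 7.24 in Sel1L-deficient liver, the highest difference of the 41 genes at that age (0.32 ± 0.23 SE, 1.25-fold, adjusted p = 0.599). Its genotypes overlapped, and the difference was 0.08 without wild-type replicate 1 and 0.53 without wild-type replicate 2 or Sel1L-deficient replicate 2.

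Parp14, an ADP-ribosyltransferase, was 6.51, 6.81 and 6.66 in wild type against 6.78, 6.92, 7.52 and 6.71 in Sel1L-deficient liver at 3 weeks, and 6.79, 7.52 and 7.32 against 7.0, 6.64 and 7.04 at 9 weeks. Trim21, a ubiquitin ligase that binds antibody, was 4.95, 4.75 and 4.91 against 5.01, 4.88, 5.55 and 5.10 at 3 weeks, and 4.70, 5.37 and 5.08 against 4.98, 4.80 and 4.91 at 9 weeks. Trim30a, of a family of close copies in mouse, was 6.39, 6.20 and 6.46 against 6.20, 6.31, 6.09 and 5.86 at 3 weeks, and 5.75, 6.38 and 6.05 against 6.09, 6.28 and 6.41 at 9 weeks. All 3 overlapped between genotypes at both ages, and Trim25, a ubiquitin ligase of the RIG-I pathway, differed by -0.04 and -0.13.

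Interferon-induced GTPases were above 0 in 4 of 4 genes at 3 weeks (median 0.26) and below 0 in 4 of 4 at 9 weeks (median -0.54). Without Sel1L-deficient replicate 3 the 3-week count was 2 of 4 with a median of 0.02, and without wild-type replicate 2 it was 3 of 4. The 9-week count held with any liver of that age left out, and its median ran from -0.82 (without wild-type replicate 1) to -0.25 (without wild-type replicate 2). Irgm1, a regulator of the GTPases that act on pathogen vacuoles, was 6.92, 6.40 and 6.64 in wild type against 6.83, 6.56, 8.03 and 6.85 in Sel1L-deficient liver at 3 weeks. Only replicate 3 of the Sel1L-deficient livers was above every wild type, and the difference of 0.42 ± 0.32 (SE; adjusted p = 0.800) was 0.10 without it. At 9 weeks Irgm1 was 6.77, 7.67 and 7.25 against 6.78, 6.58 and 6.76, which overlapped (difference -0.53 ± 0.34, adjusted p = 0.548; -0.30 without wild-type replicate 2). Gbp3, a guanylate-binding protein gene, was 5.66, 5.34 and 5.49 in wild type against 5.70, 5.62, 6.18 and 5.35 in Sel1L-deficient liver at 3 weeks. Its 9-week values were 5.66, 6.73 and 6.05 against 5.29, 5.64 and 5.94, and the difference of -0.53 ± 0.27 (adjusted p = 0.436) was -0.23 without wild-type replicate 2. The guanylate-binding genes have close relatives that can share probe signal, and Gbp2 and Gbp7 differed by 0.23 and 0.29 at 3 weeks and by -0.60 and -0.55 at 9 weeks. Without Sel1L-deficient replicate 3 the 3-week differences were -0.02 for Gbp2 and -0.04 for Gbp7, and without wild-type replicate 2 the 9-week differences were -0.13 for Gbp2 and -0.27 for Gbp7. Without wild-type replicate 1 of that age they were -0.90 and -0.87.

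In class I antigen presentation 4 of 4 genes were below 0 at 9 weeks (median -0.27) and 2 of 4 at 3 weeks (median 0.02). The 9-week count was 3 of 4 without wild-type replicate 2 or 3 of that age (medians -0.216 and -0.215). The 3-week count was 3 of 4 without Sel1L-deficient replicate 3 and 0 of 4 without wild-type replicate 1. Tap1, a subunit of the transporter that brings peptides into the endoplasmic reticulum, was 6.79, 5.96 and 6.50 in wild type against 6.31, 6.44, 7.53 and 6.42 in Sel1L-deficient liver at 3 weeks. At 9 weeks Tap1 was 6.61, 7.48 and 6.87 in wild type against 6.39, 6.47 and 6.46 in Sel1L-deficient liver, without overlap (difference -0.55 ± 0.33 SE, 0.684-fold, adjusted p = 0.509). It was -0.30 without wild-type replicate 2. The 3 Sel1L-deficient livers of that age lay close together, with an SD of 0.04 against 0.44 in wild type. Tap2, the partner subunit, was 5.67, 5.42 and 5.47 against 5.35, 5.54, 5.85 and 5.30 at 3 weeks. By 9 weeks Tap2 was 5.76, 5.73 and 6.01 in wild type against 5.55, 5.39 and 5.30 in Sel1L-deficient liver, again without overlap (difference -0.42 ± 0.15, 0.750-fold, adjusted p = 0.212).

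B2m, which encodes the light chain of class I molecules, stood at 12.02, 11.99 and 11.99 in wild type against 12.10, 12.02, 12.02 and 12.04 in Sel1L-deficient liver at 3 weeks. At 9 weeks it was 12.15, 12.23 and 12.28 in wild type against 12.10, 12.06 and 12.10 in Sel1L-deficient liver, without overlap, and the difference of -0.13 ± 0.06 (SE; 0.912-fold, adjusted p = 0.391) was small. Tapbp, which encodes the loading factor tapasin, differed by -0.05 at each age.

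**Figure D4:**
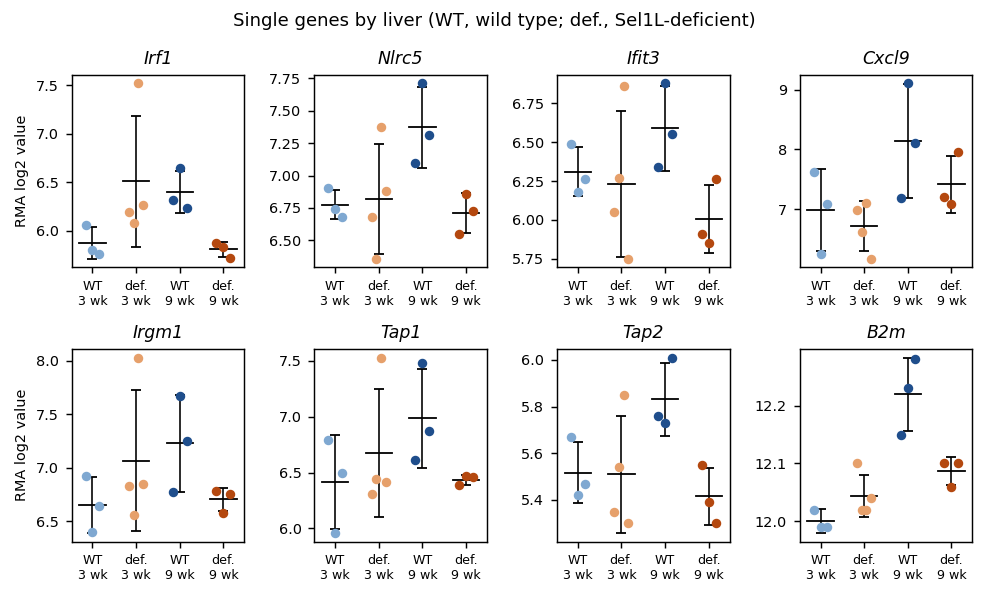
RMA log2 values (y axis, scaled per gene) of Irf1, Nlrc5, Ifit3, Cxcl9, Irgm1, Tap1, Tap2 and B2m in each liver, by group (WT, wild type; def., Sel1L-deficient); horizontal lines are means and bars the SD. Irf1 is above wild type in the Sel1L-deficient livers at 3 weeks (6.08 to 7.52) and below it at 9 weeks (5.72 to 5.87).

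The difference of the genotype effects between ages was tested as an interaction, 9-week minus 3-week difference, and 0 of 41 genes passed over all features (0.0% of which did; smallest adjusted p = 0.394). The median was -0.35 with 33 of 41 genes below 0 (50.2% of all measured genes). Unadjusted, 2 genes were lower at p under 0.05 (4.77% of all measured genes), Irf1 at -1.23 ± 0.42 (SE; adjusted p = 0.394) and Nlrc5 at -0.71 ± 0.31 (adjusted p = 0.495), and 0 were higher (6.16%). With a liver left out the number lower ran from 1 (without Sel1L-deficient replicate 3 at 3 weeks, wild-type replicates 2 or 3 at 3 weeks, or wild-type replicates 2 or 3 at 9 weeks) to 9 (without wild-type replicate 1 at 9 weeks), and the median from -0.46 to -0.17. Trim30a was higher at an unadjusted p under 0.05 without wild-type replicate 2 at 9 weeks, and Oas3 without Sel1L-deficient replicate 1 at 9 weeks.

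From 3 to 9 weeks the genes lay higher in wild-type liver in 35 of 41 cases (52.0% of all measured genes), with a median difference of 0.28. This comparison shares the 9-week wild-type livers with the genotype comparison at that age, replicate 2 among them. Of the 41, 0 passed the adjusted threshold, against 1.89% of all features, and B2m came nearest at 0.22 ± 0.06 (SE; 1.16-fold, adjusted p = 0.132). Unadjusted, 8 genes were higher at p under 0.05 (6.73% of all measured genes): Nlrc5, Zbp1, Cxcl9, Bst2, Samd9l, Parp14, Gbp3 and B2m. By the same rule 0 were lower (8.39%). Without wild-type replicate 2 of the 9-week group B2m stayed higher, Trim30a was lower and the median was 0.15. The 8 higher genes became 3 without 9-week replicate 3, 12 without 9-week replicate 1, and 3 and 2 without wild-type replicates 2 and 3 of the 3-week group. Without Sel1L-deficient replicate 3 of the 3-week group, through the shared spread, they became 16. In 8 genes all 9-week livers exceeded all 3-week livers (8.96%): Irf1, Nlrc5, Ifih1, Mx2, Bst2, Samd9l, Tap2 and B2m. In 0 genes did all 9-week livers lie below (10.6%). Bst2 went from 10.59, 10.21 and 10.28 to 10.74, 11.27 and 10.66, a difference of 0.53 ± 0.17 (adjusted p = 0.186).

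In Sel1L-deficient liver 14 of 41 genes lay higher at 9 than at 3 weeks (50.9% of all measured genes) and the median was -0.07, or 0.07 without Sel1L-deficient replicate 3 of the 3-week group. Again 0 passed the adjusted threshold (0.155% of all features did; smallest adjusted p = 0.432). Irf1 lay lower in every 9-week liver at -0.71 (adjusted p = 0.432), and at -0.37 without Sel1L-deficient replicate 3 of the 3-week group. It was the only gene of the 41 without overlap in that direction (5.29% of all measured genes, against 0 of the 41 and 5.52% in the other) and the only one lower at an unadjusted p under 0.05 (5.75%). Oas3 was higher at an unadjusted p under 0.05 (0.52, adjusted p = 0.442; 6.29% of all measured genes), at 0.30 without Sel1L-deficient replicate 3 of the 9-week group.

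The 95% intervals show what sizes these livers leave possible. At 3 weeks 33 of the 41 intervals lay within 1 log2 unit of 0, with a median half-width of 0.48, and the bounds reached from -1.25 (Cxcl9) to 1.46 (Samd9l). At 9 weeks 26 lay within that range, with a median half-width of 0.52 and bounds from -1.85 (Cxcl10) to 0.86 (Oasl1).

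Upstream of these genes, 14 of 21 listed interferon genes were measured, and 13 of the 14 lay below the array median in each group. Among 16 receptor and JAK-STAT genes 0 were called between genotypes, with medians of -0.01 at 3 weeks (8 above 0) and -0.02 at 9 weeks (7 above 0). Ifnar2, a chain of the type I interferon receptor, was 9.24, 9.28 and 9.35 in wild type against 9.09, 9.01 and 8.93 in Sel1L-deficient liver at 9 weeks, without overlap (difference -0.28 ± 0.09 SE, adjusted p = 0.151). Its 3-week difference was 0.004. Socs3, a feedback inhibitor of cytokine signalling, was 5.52, 5.33 and 4.72 against 4.73, 4.80 and 4.19 at 9 weeks (difference -0.62 ± 0.25, adjusted p = 0.293). Ptpn6, which encodes a phosphatase that restrains this signalling, lay the other way at 6.31, 6.59 and 6.79 against 6.68, 7.02 and 6.91 (difference 0.30 ± 0.13, adjusted p = 0.315), after -0.21 at 3 weeks. Of 17 further sensors, adaptors, kinases and regulators of nucleic acid sensing 0 were called, with medians of 0.008 at 3 weeks and -0.007 at 9 weeks. Of 13 negative regulators 0 were called, with medians of 0.02 and 0.008.

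A list of 52 further measured interferon-stimulated genes had medians of 0.04 at 3 weeks (30 above 0) and -0.18 at 9 weeks (41 of 52 below 0). As a mean over the list, the log2 value minus the 13-liver mean was -0.04, 0.37 and 0.12 in wild type at 9 weeks. In Sel1L-deficient liver of that age it was -0.15, -0.05 and 0.07, so the genotypes overlapped. None of the 52 was called between genotypes, and at 9 weeks 11 were lower (6.85% of all measured genes) and 0 higher (8.91%) at an unadjusted p under 0.05. Psmb8, an immunoproteasome subunit gene, came nearest: 7.51, 8.11 and 7.69 in wild type against 6.93, 6.84 and 7.15 in Sel1L-deficient liver at 9 weeks, without overlap (difference -0.80 ± 0.19 SE, adjusted p = 0.0672). Iigp1, an immunity-related GTPase gene, was 9.17, 9.82 and 9.36 against 8.87, 8.50 and 8.64 at 9 weeks (difference -0.78 ± 0.26, adjusted p = 0.190). At 3 weeks Iigp1 had been 8.12, 8.69 and 8.45 against 8.68, 8.66, 9.58 and 8.63, with replicate 3 again the highest Sel1L-deficient liver. Ifi27, a mitochondrial interferon-induced gene, rose with age in wild type from 7.03, 6.65 and 6.98 to 8.01, 9.05 and 8.27 (difference 1.56 ± 0.26, adjusted p = 0.0150).

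Among 15 class I heavy chain and loading genes differences lay on both sides of 0, with 10 of 15 below 0 at 9 weeks and 0 called between genotypes. H2-Q8, one of the close-knit heavy chain genes that can share probe signal, was 7.09, 7.57 and 6.97 in wild type against 6.74, 6.45 and 6.73 in Sel1L-deficient liver at 9 weeks (difference -0.57 ± 0.14 SE, adjusted p = 0.0722). H2-K1 was 10.17, 10.31 and 10.24 against 9.90, 9.95 and 10.07 (difference -0.26 ± 0.08, adjusted p = 0.139), and it rose with age in wild type by 0.53 ± 0.08 (adjusted p = 0.00703). Erap1, a peptide-trimming enzyme gene, differed by 0.19 ± 0.09 at 3 weeks and -0.34 ± 0.10 at 9 weeks (adjusted p = 0.685 and 0.117). The chaperone genes of the list lay the other way. Pdia3 was 9.32, 9.19 and 9.62 in wild type against 10.12, 9.99, 10.75 and 10.61 in Sel1L-deficient liver at 3 weeks (difference 0.99 ± 0.23, adjusted p = 0.413), and 0.66 ± 0.25 higher at 9 weeks (adjusted p = 0.248). Calr and Canx, which encode the lectin chaperones calreticulin and calnexin, were 0.75 and 0.39 higher at 3 weeks and 0.57 and 0.24 higher at 9 weeks.

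Class II presentation genes, which mark antigen-presenting cells, had medians of -0.008 at 3 weeks and -0.08 at 9 weeks over 10 genes with 0 called between genotypes. They rose with age in wild type for H2-Aa (1.41 ± 0.28 SE, adjusted p = 0.0301), H2-Ab1 (1.54 ± 0.29, adjusted p = 0.0245) and H2-Eb1 (1.38 ± 0.27, adjusted p = 0.0277). In Sel1L-deficient liver the same 3 genes differed by 1.04, 1.17 and 1.06 with age (adjusted p = 0.172, 0.138 and 0.154). The summed linear level of the 10 genes was 619.8 to 901.7 and 668.9 to 864.8 at 3 weeks, and 1413 to 1811 and 890.8 to 2012 at 9 weeks, in wild type and Sel1L-deficient liver. The low end of 890.8 was Sel1L-deficient replicate 1 at 9 weeks, and replicates 2 and 3 of that group had 2012 and 1722. The part of antigen-presenting cells in the age differences above was not tested.

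Markers of other liver cells were set beside the genotype differences. All 14 Kupffer cell and macrophage markers lay below 0 at 3 weeks (median -0.34), where the interferon genes had a median of 0.04, with sums of 3721 to 3980 in wild type against 2792 to 3304 in Sel1L-deficient liver. At 9 weeks 11 of the 14 lay above 0 (median 0.08), with sums of 2614 to 3495 against 1957 to 4026. Sel1L-deficient replicate 1 of that age had the lowest sum of the 13 livers (1957). Replicates 2 and 3 had 4024 and 4026, ranks 2 and 1. Of the 41 interferon genes, 36 lay below 0 at that age. T and NK cell markers were below 0 in 11 of 12 at 9 weeks (median -0.13), with sums of 138.8 to 177.8 in wild type against 126.6 to 148.7 in Sel1L-deficient liver, and 7 of the 12 were under the array median in both groups. B and plasmacytoid dendritic cell markers were below 0 in 6 of 8 at that age (median -0.09), with sums of 142.3 to 174.2 against 146.2 to 156.7. Under the array median were 5 of these 8 in each group. Monocyte and neutrophil markers were below 0 in 5 of 8 (median -0.18), with sums of 78.37 to 106.9 against 71.82 to 105.8. Erythroid markers were below 0 in 5 of 5 at both ages (medians -0.41 and -0.22), with sums of 218.2 to 375.3 in wild type against 128.9 to 215.0 at 3 weeks and 176.0 to 283.9 against 112.0 to 155.0 at 9 weeks, without overlap. Hepatocyte markers were below 0 in 7 of 8 at 9 weeks (median -0.11; 0.03 at 3 weeks), with sums of 44390 to 46240 in wild type against 40940 to 45390. Conventional dendritic, endothelial, stellate and bile duct lists had 9-week medians of 0.06, -0.03, 0.12 and -0.09. No marker of these 10 lists was called between genotypes, and the part of such cells in the 9-week pattern was not tested.

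Genes with and without the response element core in the promoter window were compared as a description. The 17 with the core had a median difference of 0.04 at 3 weeks and -0.27 at 9 weeks, and the 15 without it had -0.05 and -0.17. In Sel1L-deficient replicate 3 at 3 weeks the median excess over the other 3 livers was 0.63 with the core and 0.54 without.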

How the data were processed

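Values were the authors' deposited log2 expression, 1 per array feature and liver, made by RMA (background correction, quantile normalization and probe summary) per the submitters' processing notes, with its version not given in the sources used here. Quantile normalization removes shifts shared by most genes. The table had no missing value and no detection calls, and the array scans were not used here.

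Of 35556 features, 21218 had 1 gene symbol in the platform annotation, 1881 had several and 12457 were not listed there. Through gene numbers, 21185 of the 21218 matched RefSeq (GRCm38.p6), and 0 symbols needed an update. Groups came from the sample titles. For each contrast a group-means model of the 13 livers was fitted (lmFit and eBayes of limma 3.58.1, R 4.3.3; two-sided). Benjamini-Hochberg adjustment covered every feature, and a gene was called below an adjusted p of 0.05. All SE, p-values and 95% intervals of single genes come from that fit, which was tested on simulated data. Precision is limited by the number of arrays, and the within-group SD of a feature had a median of 0.15 to 0.16 log2 units.

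The members and lists were chosen with earlier results of these data known. Liver values are printed for the 4 largest differences per genotype comparison, and per role for the 2 smallest p-values at each age; Isg15 and Bst2 were added after their values were seen, as were Ifi27 and the class II genes called with age. From other lists, genes with the smallest p-values are named. Aliases were matched through RefSeq synonyms. The labels describe separate mice, with neither litter nor array date. The array descriptions give plate columns 5 and 7. The main fit had no term for these columns. They served as a block in an alternative fit and for the medians within each column. For 9-week replicate 3 the descriptions give another replicate number than the titles, which were used. Same-numbered livers of different groups had deviations that correlated between -0.01 and 0.07, so the numbers were not taken as pairs.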

Additional observations from a re-analysis of the deposited data

Results flagged for a closer look

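In the 3-week Sel1L-deficient group of 4 livers, the highest liver, replicate 3 in each case, lay far from the others in 5 of 42 series of values tested, the 41 genes and their mean. The gap to the nearest other liver, as a share of the group's range, was 0.869 for Irf1, 0.847 for Irf9, 0.847 for Rsad2, 0.871 for Ifi35 and 0.899 for Tap1, above Dixon's 95% critical value for 4 samples. Chance alone gives such a gap in about 1 of 20 groups, and the genes share their livers.

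In 5 genes every Sel1L-deficient liver lay on one side of the wild-type mean at 3 weeks and on the other side at 9 weeks (12.2% of the 41, against 7.98% of all measured genes). The 9-week minus 3-week difference was -1.232 for Irf1, -0.416 for Trim21, 0.441 for Trim30a, -0.636 for Parp14 and -0.177 for B2m. As an interaction in limma none of these passed the adjusted threshold (adjusted p = 0.394, 0.637, 0.555, 0.547 and 0.547). Single livers of Trim21, Trim30a, Parp14 and of B2m at 3 weeks overlapped between genotypes, as the liver values show.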

How the results depend on the processing

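The count of 0 called genes held for both genotype comparisons, the interaction and ageing in Sel1L-deficient liver under every alternative run. For ageing in wild type it became 1 (B2m, adjusted p = 0.0214) with the limma-trend, robust fit. The 3-week median of 0.04 was -0.218 within plate column 5 and 0.311 within plate column 7, and ran from -0.069 to 0.109 with a liver left out; the 9-week median of -0.23 ran from -0.374 to -0.129 with a liver left out, and from -0.425 to -0.191 under the other settings. With the replicate number as a block the medians were 0.089 and -0.23, the count of called genes stayed 0 in each contrast, and Cxcl10 at 3 weeks turned to 0.017. With a liver left out, the 3-week difference ran from -0.034 to 0.29 for Ddx58, from -0.637 to 0.05 for Cxcl9, from -0.495 to 0.017 for Cxcl10 and from -0.026 to 0.447 for Tap1. The other alternatives kept direction and side: 660 of 667 single-gene values over 29 gene and age pairs, with 0 past the threshold. Why the 7 others turned was not tested. With 3 or 4 livers per group, a median half-width of about 0.48 to 0.52 log2 units limits what could be called.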
